A study of Homo sapiens with 15 samples.

Results

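Voltage-gated sodium and calcium channel genes were followed in A673 cells, an Ewing sarcoma line driven by the fusion EWS/FLI, after depletion of the fusion and rescue with 3 cDNAs. The set was defined by gene symbol and holds 40 of the 57820 genes counted, with 14 sodium channel genes and 26 calcium channel genes. Among the sodium channel genes were 10 for pore-forming α subunits and 4 for β subunits. Among the calcium channel genes were 10 for pore-forming α1 subunits, 4 for α2δ subunits, 4 for β subunits and 8 for γ subunits. No expression value entered the rule, but the set was chosen with earlier results of these data known.

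RNA was sequenced from 5 conditions with 3 libraries each, and every condition was made from the same cell line by retroviral delivery of an shRNA on day 1 and of a cDNA vector on day 5, with selection in 2 μg/mL puromycin and, from day 6 to day 16, also in 400 μg/mL hygromycin B. iLuc cells kept endogenous EWS/FLI (endo-EF), as their shRNA targets luciferase and their cDNA vector was empty. In iEF cells the shRNA targets the fusion, again with an empty vector. WT-EF, Δ22 and DAF cells carry that same shRNA with a 3XFLAG-tagged cDNA, of wildtype EWS/FLI, of a form that lacks the EWS domain, or of a form with tyrosines of that domain changed to alanine. Drug selection, an shRNA and a pMSCV vector are shared by all 5 conditions. The rescue cDNAs are expressed from that vector and not from the locus of the fusion. The labels number the replicates but do not say whether they were separate cultures. The paper's schematic draws transduction, rescue and harvest as the steps of a single replicate, and its authors adjusted each replicate set as a batch. The p-values measure the spread between these libraries.

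Voltage-gated sodium channels open when the membrane is depolarised and carry the fast upstroke of the action potential, through an α subunit that forms the pore and β subunits that tune its gating and its place in the membrane. Voltage-gated calcium channels turn depolarisation into calcium entry, which triggers transmitter release, contraction and gene regulation. High-voltage-activated channels of the L, P/Q, N and R types combine an α1 pore with α2δ and β subunits, whereas the low-voltage-activated T-type pores can work alone. Ewing sarcoma is not an excitable tissue, and its cells express a mix of neural and mesenchymal genes.

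EWS/FLI binds GGAA repeats, and the genome was searched for them after the expression values had been seen. A run of at least 4 GGAA in tandem, on either strand, lay within 5 kb of the start of the canonical transcript for 3 of the 40 channel genes (7.5%), and for 3.42% of 19391 protein-coding genes. Within 50 kb the shares were 42.5% (17 genes) and 33.3%, and for runs of at least 10 GGAA they were 10% (4 genes) and 9.8%. The runs beside *CACNA1I* and *CACNB2* are shown as the longest of the 3 within 5 kb. The sequences are from GRCh37, with 80 bases on each side, on the strand of the gene. The run is in capitals and reads TTCC, the reverse complement of GGAA, in both.
CACNA1I: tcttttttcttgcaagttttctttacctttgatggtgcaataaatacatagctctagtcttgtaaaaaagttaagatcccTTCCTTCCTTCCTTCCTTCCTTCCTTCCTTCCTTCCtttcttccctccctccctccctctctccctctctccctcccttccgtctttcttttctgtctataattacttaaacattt
CACNB2: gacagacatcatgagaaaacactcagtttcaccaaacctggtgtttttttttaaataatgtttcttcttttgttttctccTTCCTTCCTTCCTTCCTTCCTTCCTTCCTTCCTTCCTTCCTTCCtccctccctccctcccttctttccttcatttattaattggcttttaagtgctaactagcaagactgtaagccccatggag

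The *CACNA1I* sequence is chr22:39966174-39966369, on the plus strand, with a run of 9 repeats whose middle is at -487 bases from the start of the gene. The *CACNB2* sequence is chr10:18425937-18426140, on the plus strand, with a run of 11 repeats at -3315 bases. Neither window overlapped an exon of any annotated gene. Binding of EWS/FLI at these runs was not measured in these libraries. The shortest of the 3 runs within 5 kb, not shown, has 4 repeats at -3549 bases from the start of the canonical transcript of *CACNA1A*. Between iLuc and iEF, *CACNA1I* and *CACNB2* passed the test described below and *CACNA1A* did not. Whether the runs bear on expression was not tested.

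Total counts ranged from 28659475 to 41859880 per library. *FLI1*, whose 3′ part is in the fusion, read 48.0, 47.8 and 52.4 CPM (counts scaled to a TMM-normalized library size of 1000000) in iLuc and 12.9, 15.5 and 15.3 in iEF, so the depletion was seen in every library. In WT-EF cells it read 16.0, 18.0 and 18.7 CPM, above every iEF library by a log2 difference of 0.27 ± 0.10 (SE; adjusted p = 0.0538, edgeR), and it was higher than in iEF in Δ22 (24.4 to 36.2 CPM) and DAF (22.1 to 27.3 CPM). The Δ22 difference did not pass without replicate 2 of every condition (edgeR's adjusted p = 0.134). The Ewing sarcoma markers *NR0B1*, *NKX2-2*, *STEAP1* and *CCND1* had reads in every library, and *PTPRC*, *EPCAM* and *MYOD1*, markers of leukocytes, epithelium and skeletal muscle, reached at most 1.01 CPM. *CD99* had at most 3 counts in any library, but X and Y carry identical copies of this gene, so its count is uncertain. *EPCAM* read 0.642 to 0.985 CPM in iLuc, 0.0788 to 0.145 in iEF and 0.32 to 0.344 in WT-EF, and was called higher than iEF in both (log2 difference 2.76 ± 0.42 and 1.46 ± 0.45, edgeR's adjusted p = 7.51e-05 and 0.0239). *PTPRC* was called in no comparison and *MYOD1* was at 0 in every iLuc library, and the part of any other cell type in the results was not tested. These are bulk samples, so fewer cells that express a channel and less RNA per cell cannot be told apart.

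Of the 40 channel genes, 33 averaged at least 1 count per library and were tested. The 7 that did not were *CACNA1F*, *CACNA1S*, *CACNG1*, *CACNG2*, *CACNG7*, *SCN2B* and *SCN10A*, whose products are known from retina, skeletal muscle, brain and sensory neurons, and *SCN10A* had no read in any library. Per kilobase of annotated exon, *CACNA2D1*, which encodes the α2δ subunit bound by gabapentin and pregabalin, had the highest level of the set in every condition, at 12.7 ± 0.486 CPM per kb in iLuc and 10.3 ± 1.59 in iEF (SD, n = 3). In iLuc it was followed by *CACNA1H* at 4.57 ± 1.06, *CACNB2* at 3.16 ± 0.305, *CACNB3* at 1.5 ± 0.119, *SCN4B* at 1.23 ± 0.542, *CACNA1G* at 1.16 ± 0.53 and *SCN9A* at 1.07 ± 0.24 CPM per kb. Among the last 4 of these, the means of neighbours in the list differed by less than the larger SD of the pair. In iEF the levels below *CACNA2D1* included *CACNG4* at 2.15 ± 0.276, *CACNB3* at 1.5 ± 0.219 and, among the sodium pores, *SCN8A* at 0.537 ± 0.128 CPM per kb. The T-type pores *CACNA1H* and *CACNA1G* had dropped there to 0.191 ± 0.0948 and 0.0935 ± 0.0214 CPM per kb. Scaling by the longest transcript changed the order, with *CACNB2* above *CACNA1H* in iLuc (5.77 and 4.79 CPM per kb) and *CACNB3* above *CACNG4* in iEF (2.66 and 2.15).

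**Figure D1:**
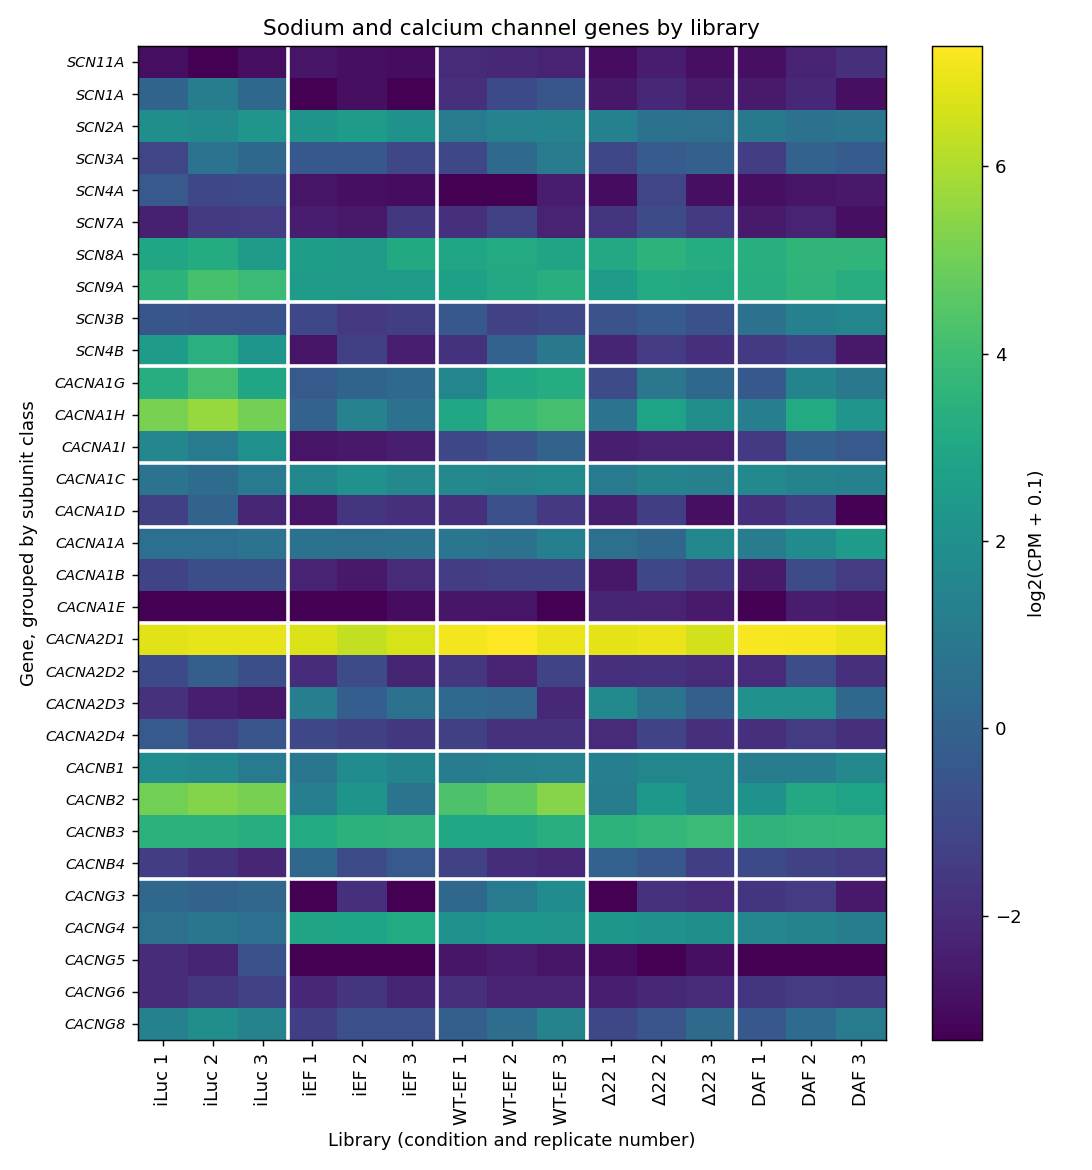
Expression of 31 of the 33 tested channel genes in each of the 15 libraries, as log2(CPM + 0.1), with genes in rows grouped by subunit class and libraries in columns grouped by condition. The T-type pores CACNA1G, CACNA1H and CACNA1I and the auxiliary subunits CACNB2 and SCN4B are high in iLuc and low in iEF, CACNG4 shows the opposite, and CACNA2D1 is high throughout.

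**Figure D2:**
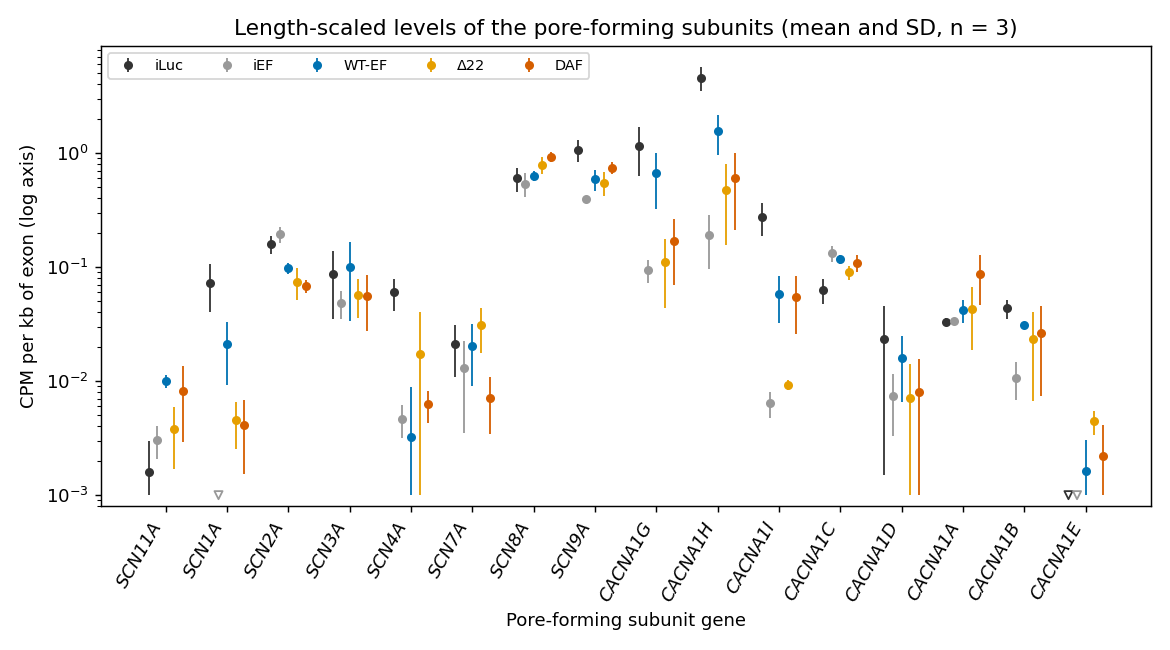
Mean level of 16 tested pore-forming subunit genes in CPM per kb of exon on a log axis, with SD over 3 libraries; whiskers that would pass below the axis end at its lower limit, and open triangles mark a mean below that limit. In iLuc cells CACNA1H has the highest level of the pores at 4.57 CPM per kb, and in iEF cells SCN8A does at 0.537.

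Channel genes differed between iLuc and iEF cells in both directions. By the quasi-likelihood test of edgeR, adjusted by Benjamini-Hochberg over 28793 genes and with the replicate number as a block, 13 channel genes were higher in iLuc and 5 lower. This is 39.4% and 15.2% of the 33 tested, and over all genes tested 19.5% were higher and 22.1% lower. The median log2 difference was 0.64 over the tested channel genes and 0.04 over all tested genes. All 3 T-type pores were among those higher in iLuc, with *CACNB2*, *SCN4B*, *SCN9A*, *SCN1A*, *SCN4A*, *CACNA1B*, *CACNA2D2*, *CACNG3*, *CACNG5* and *CACNG8*. Those lower in iLuc included *CACNG4*, *CACNA1C*, *CACNA2D3* and *CACNB4*. Without single libraries or replicate sets the total of 18 ran from 16 to 19, and 15 of the 18 calls were made under every alternative that tested the gene (at most 16).

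WT-EF cells, compared with the same 3 iEF libraries, had 10 channel genes higher and 4 lower (30.3% and 12.1% of those tested), where 12.9% and 17.0% of all tested genes were higher and lower. The median was 0.55 against -0.01 over all tested genes. In Δ22 cells no channel gene was higher and 2 were lower, *CACNG4* and *SCN2A*, with 0.472% and 0.83% of all tested genes called. In DAF cells 9 were higher and 2 lower (27.3% and 6.06% of those tested), with 5.0% and 6.19% over all tested genes and a median of 0.65 against 0.00. The same 3 iEF libraries enter all 4 comparisons, so their values are given side by side and no overlap between them was tested. The Δ22 count was 0 without Δ22 replicate 2, Δ22 replicate 3 or replicate 2 of every condition and 1 without any 1 of the iEF libraries, and the DAF count was 7 without DAF replicate 3 or replicate 1 of every condition and 6 without replicate 2 of every condition.

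**Figure D3:**
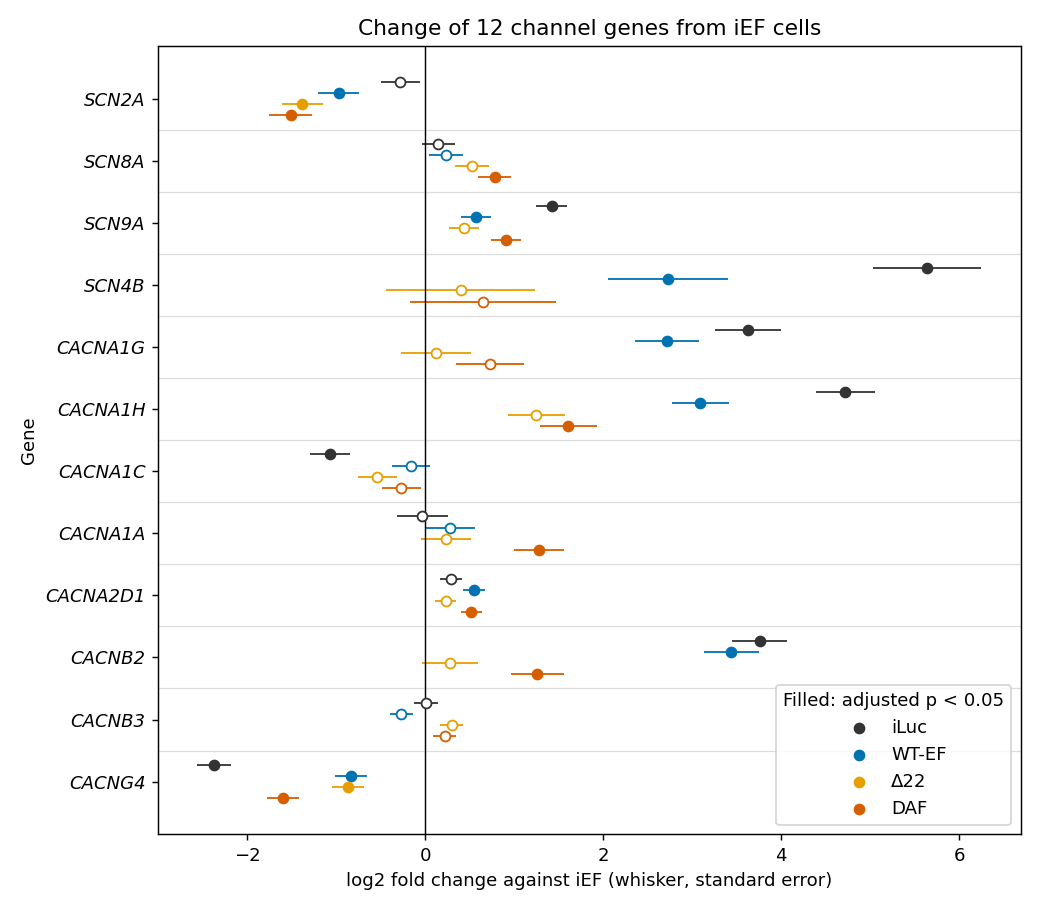
log2 fold change against iEF, with SE as whiskers, for 12 channel genes that averaged at least 50 counts per library and passed the test in at least 1 of 7 comparisons, in iLuc, WT-EF, Δ22 and DAF. Filled points have an adjusted p under 0.05. CACNA1H is highest in iLuc at 4.72 and lower in WT-EF at 3.09 and DAF at 1.61, and SCN2A is called lower in the 3 rescues and not called in iLuc.

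All 3 T-type pores were higher in iLuc than in iEF. They open close to the resting potential and carry calcium at subthreshold voltages, and *CACNA1H* was the most abundant in these cells. *CACNA1H* (chr16:1203106-1271771, GRCh37) read 35.2, 49.8 and 33.1 CPM in iLuc and 0.92, 2.53 and 1.48 CPM in iEF. It read 7.86, 14.4 and 17.8 CPM in WT-EF, 1.55, 7.04 and 3.72 in Δ22, and 2.25, 8.89 and 4.49 in DAF. iLuc lay above every other library and WT-EF above every iEF library, while DAF overlapped iEF and WT-EF in level, with replicate 1 the lowest and differences of the same sign in all 3 replicate sets. Against iEF, the log2 difference was 4.72 ± 0.33 in iLuc (26.3-fold; edgeR's adjusted p = 4.2e-08), 3.09 ± 0.32 in WT-EF (adjusted p = 4.24e-06), 1.61 ± 0.32 in DAF (adjusted p = 0.00451) and 1.25 ± 0.32 in Δ22 (adjusted p = 0.0745). The Δ22 difference was called in 4 of 16 alternatives, by DESeq2's Wald test (adjusted p = 0.00389) and by edgeR with no filter on low counts (4.4e-06), with only the 6 libraries compared (0.0283) and without Δ22 replicate 1 (0.0385). WT-EF was below iLuc by a log2 difference of -1.63 ± 0.28 and above DAF by 1.48 ± 0.29 (edgeR's adjusted p = 0.000846 and 0.00124). The DAF and Δ22 libraries overlapped, and DAF against Δ22 was not called. Without the replicate block the calls for DAF against iEF and WT-EF against DAF were lost (edgeR's adjusted p = 0.0693 and 0.0616). *TPSG1* on the opposite strand shares 121 bp of exon with it and averaged 7.0 counts.

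*CACNA1G* (chr17:48638076-48704835), a T-type pore of thalamic and cardiac pacemaking cells, read 9.78, 17.6 and 7.46 CPM in iLuc and 0.709, 0.978 and 1.13 CPM in iEF. Among the rescues it read 2.82, 7.9 and 9.32 CPM in WT-EF, 0.44, 1.77 and 1.11 in Δ22, and 0.668, 2.64 and 1.78 in DAF. Every iLuc and WT-EF library was above every iEF library, and the Δ22 and DAF libraries spanned the iEF range. Relative to iEF, the log2 difference was 3.63 ± 0.37 in iLuc and 2.72 ± 0.36 in WT-EF (edgeR's adjusted p = 1.49e-06 and 4.44e-05). It was 0.12 ± 0.39 in Δ22 and 0.73 ± 0.38 in DAF, neither past the test (edgeR's adjusted p = 0.946 and 0.274), and WT-EF exceeded DAF by 1.99 ± 0.34 (edgeR's adjusted p = 0.000509). WT-EF against iLuc, at -0.9, did not pass (edgeR's adjusted p = 0.0589, called in 5 of 16 alternatives).

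*CACNA1I* (chr22:39966758-40085740), the T-type pore that follows the 9-repeat run shown above, averaged 29.7 counts per library. It read 2.9, 2.05 and 3.94 CPM in iLuc, and in iEF it had 7 counts in the 3 libraries together (0.0526 to 0.0873 CPM). WT-EF read 0.388, 0.555 and 0.932 CPM, DAF 0.246, 0.844 and 0.671, and Δ22 0.0879, 0.104 and 0.107. WT-EF and DAF overlapped each other, both were above every iEF and Δ22 library, and both were below every iLuc library. As a ratio of pooled normalized counts with an exact 95% interval for counting error alone, iLuc over iEF was 43.0 (20.6 to 108.0), WT-EF over iEF 9.16 (4.22 to 23.6), DAF over iEF 8.95 (4.08 to 23.2) and Δ22 over iEF 1.45 (0.499 to 4.49). edgeR's adjusted p was 1.87e-07 for iLuc, 0.000235 for WT-EF, 0.00139 for DAF and 0.814 for Δ22. The difference between WT-EF and DAF was 0.04 ± 0.35 (log2; edgeR's adjusted p = 0.978). DAF was above Δ22 by 2.51 ± 0.47 (edgeR's adjusted p = 0.0151), a call that was lost in 7 of 16 alternatives, among them those without DAF replicate 2 and without each Δ22 library, at an adjusted p of up to 0.244.

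**Figure D4:**
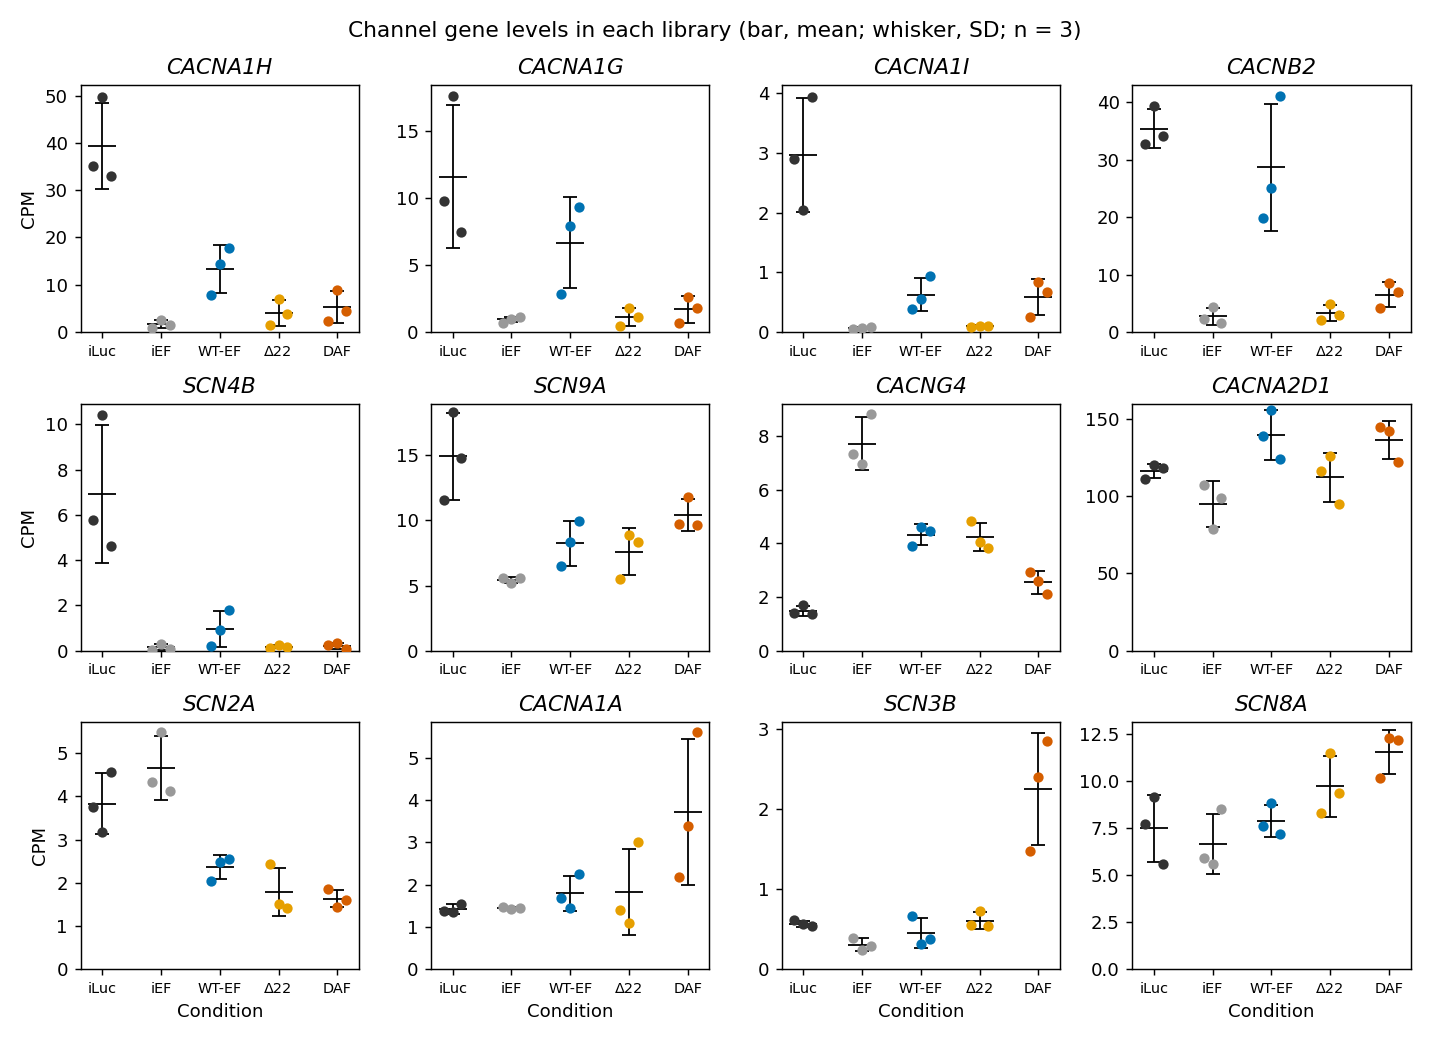
CPM in each library for 12 channel genes, one panel per gene with its own linear axis from 0, with points for the libraries, bars for the mean and whiskers for the SD (n = 3). By mean, the T-type pores, CACNB2 and SCN4B are highest in iLuc and intermediate in WT-EF, but the CACNB2 libraries of iLuc and WT-EF overlap. CACNG4 is lowest in iLuc, and CACNA2D1 is above its iEF levels in WT-EF and DAF. CACNA1A and SCN3B have their highest means in DAF.

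Among the other well-expressed calcium pores, *CACNA1C* and *CACNA1A* passed the test in some comparisons. *CACNA1C* (chr12:2079938-2807116), the L-type pore of heart and smooth muscle and of many neurons, read 1.56, 1.23 and 2.03 CPM in iLuc and 3.0, 3.98 and 3.11 CPM in iEF. It ranged from 2.72 to 3.22 CPM in WT-EF, from 1.96 to 2.61 in Δ22 and from 2.45 to 3.3 in DAF. The iLuc libraries were below every iEF and WT-EF library, and WT-EF and DAF overlapped iEF. The log2 difference was -1.07 ± 0.22 for iLuc against iEF and 0.90 ± 0.22 for WT-EF against iLuc (edgeR's adjusted p = 0.00131 and 0.0108). Without replicate 2 of every condition both calls were lost (edgeR's adjusted p = 0.0512 and 0.104), and the latter was lost also without replicate 1 (0.123) or without iLuc replicate 2 (0.0613). No rescue differed from iEF past the test, with adjusted p of 0.637 for WT-EF, 0.282 for Δ22 and 0.526 for DAF (edgeR).

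*CACNA1A* (chr19:13317256-13743839), the P/Q-type pore of presynaptic terminals, stayed within a narrow range in 3 of the conditions, at 1.35 to 1.55 CPM in iLuc, 1.42 to 1.47 in iEF and 1.45 to 2.26 in WT-EF. In DAF it read 2.18, 3.38 and 5.6 CPM, and in Δ22 1.41, 1.1 and 3.0. Every DAF library was above every iLuc and iEF library, whereas DAF replicate 1 was below the highest WT-EF library and Δ22 replicate 3 stood above the other Δ22 libraries. The log2 difference from iEF was 1.28 ± 0.28 in DAF (edgeR's adjusted p = 0.00739) and -0.03 ± 0.29 in iLuc (adjusted p = 0.944). WT-EF was below DAF by -1.0 ± 0.27 (edgeR's adjusted p = 0.011). The DAF call against iEF was lost without DAF replicate 3, iEF replicate 3 or replicate 2 of every condition (edgeR's adjusted p = 0.055, 0.0549 and 0.0905), and that of WT-EF against DAF without DAF replicate 2, DAF replicate 3 or replicate 2 of every condition (0.0512, 0.0791 and 0.116).

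The remaining calcium pores had few reads. *CACNA1B*, the N-type pore, read 0.336 to 0.478 CPM in iLuc and 0.0674 to 0.145 in iEF, without overlap, and was called higher in iLuc (log2 difference 1.93 ± 0.54, edgeR's adjusted p = 0.00949). That call was lost without iEF replicate 2 (edgeR's adjusted p = 0.0631) and without replicate 2 of every condition (0.0673). *CACNA1D* and *CACNA1E*, an L-type and the R-type pore, averaged 8.4 and 1.3 counts per library and were called in none of the 7 comparisons.

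The calcium β subunits bind the pore from the cytoplasm and bring it to the membrane, and of the 4 genes *CACNB2* differed most. *CACNB2* (chr10:18429353-18832486), the β subunit of cardiac L-type channels, read 32.8, 39.3 and 34.1 CPM in iLuc and 2.21, 4.42 and 1.57 CPM in iEF. It read 19.9, 25.0 and 41.0 CPM in WT-EF, 2.14, 4.9 and 2.93 in Δ22, and 4.11, 8.47 and 7.01 in DAF. WT-EF and iLuc overlapped each other and stood apart from the other conditions, and DAF replicate 1 lay within the iEF range. Compared with iEF, the log2 difference was 3.76 ± 0.31 in iLuc, 3.44 ± 0.31 in WT-EF and 1.26 ± 0.30 in DAF (edgeR's adjusted p = 1.93e-07, 1.36e-06 and 0.0139), and 0.28 ± 0.31 in Δ22 (adjusted p = 0.779). WT-EF did not differ from iLuc past the test, at -0.32 ± 0.27 (edgeR's adjusted p = 0.466, but 0.0454 without WT-EF replicate 3), and was above DAF by 2.17 ± 0.28 (adjusted p = 5.87e-05). The DAF call was lost without the replicate block (edgeR's adjusted p = 0.0524) and without DAF replicate 2, DAF replicate 3, iEF replicate 3 or replicate 1 of every condition (0.0609, 0.0592, 0.0653 and 0.0709). An unnamed long noncoding RNA on the opposite strand shares 742 bp of exon with *CACNB2* and averaged 49.8 counts. The strand setting is not stated, so how reads in the shared stretch were counted is not known.

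*CACNB3* ranged from 8.93 to 11.9 CPM in iEF, from 9.73 to 11.3 in iLuc, from 8.14 to 10.2 in WT-EF and from 11.8 to 12.9 in DAF. The WT-EF libraries were all below the DAF libraries, with a log2 difference of -0.49 ± 0.13 (edgeR's adjusted p = 0.0108), and no other comparison passed. That call was lost with ComBat-adjusted values (adjusted p = 0.0783, limma) and by edgeR with only the 6 libraries compared (0.0531), without WT-EF replicate 2 (0.0588) and without replicate 1 or 2 of every condition (0.0822 and 0.149). *CACNB4* averaged 14.3 counts and was lower in iLuc and in WT-EF than in iEF, at 0.119 to 0.275 and 0.133 to 0.332 CPM against 0.438 to 1.05 (edgeR's adjusted p = 0.000743 and 0.00128). *CACNB1*, the β subunit of skeletal muscle, read 1.71 to 3.37 CPM over all 15 libraries and was not called in any comparison.

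The α2δ subunits are extracellular proteins that raise the number of channels at the surface. *CACNA2D1* (chr7:81575760-82073272) read 111, 120 and 118 CPM in iLuc and 107, 78.6 and 99.0 in iEF. It read 139, 156 and 124 CPM in WT-EF, 116, 126 and 94.9 in Δ22, and 145, 142 and 122 in DAF. WT-EF and DAF were above every iEF library, and above every iLuc library too. Against iEF, the log2 difference was 0.55 ± 0.12 in WT-EF and 0.52 ± 0.12 in DAF (edgeR's adjusted p = 0.00279 and 0.0123) and 0.29 ± 0.12 in iLuc (adjusted p = 0.0672, called in 5 of 16 alternatives). WT-EF against iLuc, at 0.26 ± 0.12, did not pass (edgeR's adjusted p = 0.157, and 0.0223 without replicate 3 of every condition). Without replicate 2 of every condition both calls against iEF were lost (edgeR's adjusted p = 0.0589 for WT-EF and 0.121 for DAF), and that of DAF also without DAF replicate 2 (0.0515) or replicate 1 of every condition (0.0825).

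*CACNA2D3* averaged 49.4 counts and was 1 of the few members with far lower levels in iLuc, at 0.183, 0.0842 and 0.0597 CPM against 2.21, 0.809 and 1.48 in iEF. In DAF it read 4.08, 3.9 and 1.07 CPM, in Δ22 3.14, 1.59 and 0.822, and in WT-EF 1.14, 1.0 and 0.133. The replicate 3 library was the lowest of each of these conditions, and the DAF and Δ22 libraries overlapped. The log2 difference was -3.90 ± 0.60 for iLuc against iEF and -2.04 ± 0.43 for WT-EF against DAF (edgeR's adjusted p = 9.16e-05 and 0.00251). Without iEF replicate 3 the former was -3.31. *CACNA2D2* was called higher in iLuc than in iEF and *CACNA2D4* lower in WT-EF than in iLuc, at edgeR's adjusted p of 0.0484 and 0.0378, and these calls were lost in 9 and 10 of 16 alternatives.

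Of the γ family, *CACNG4* was lower than in iEF in iLuc and in all 3 rescues. Several γ proteins, *CACNG4* and *CACNG8* among them, escort AMPA-type glutamate receptors to the synapse and do not act mainly on calcium channels. *CACNG4* (chr17:64960823-65029514) read 1.41, 1.71 and 1.37 CPM in iLuc and 7.33, 6.98 and 8.84 CPM in iEF. It read 3.9, 4.62 and 4.47 CPM in WT-EF, 4.84, 4.07 and 3.82 in Δ22, and 2.95, 2.61 and 2.11 in DAF. Every library of the 3 rescues was below every iEF library and above every iLuc library, and DAF was below WT-EF and Δ22. Relative to iEF, the log2 difference was -2.37 ± 0.19 in iLuc, -0.83 ± 0.18 in WT-EF, -0.87 ± 0.18 in Δ22 and -1.60 ± 0.18 in DAF (edgeR's adjusted p = 1.67e-07, 0.00211, 0.0258 and 9.63e-05). WT-EF was above DAF by 0.76 ± 0.18 (edgeR's adjusted p = 0.0056) and DAF against Δ22 gave -0.73 ± 0.18 (adjusted p = 0.0736, called in 3 of 16 alternatives). The Δ22 call was lost in 7 of 16 alternatives, those without Δ22 replicate 2 or 3, without iEF replicate 1 or 3 and without any 1 of the replicate sets, at an adjusted p of up to 0.362. WT-EF against DAF was lost without replicate 2 of every condition (edgeR's adjusted p = 0.0742).

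The neighbours of *CACNG4* on chromosome 17 had few reads. *CACNG5* (chr17:64831235-64890868) had no count in iEF or DAF and 27 counts over the 3 iLuc libraries, at least 9.02-fold higher in iLuc by a floor of 3 counts over the group (edgeR's adjusted p = 0.00245). Of these counts 18 came from iLuc replicate 3, without which the bound was 4.48-fold (edgeR's adjusted p = 0.0192). By contrast, *CACNG1* on the other side of *CACNG4* had at most 3 counts in any library. *CACNG3*, on chromosome 16, read 1.1, 0.954 and 1.04 CPM in iLuc, 1.05, 1.93 and 3.51 in WT-EF, and 0, 0.169 and 0 in iEF, and all its iEF reads came from replicate 2. It was called in iLuc and WT-EF against iEF and in WT-EF against DAF, where it read 0.0671 to 0.264 CPM (edgeR's adjusted p = 0.000546, 0.000109 and 0.000877). These calls were made under every alternative, but the fitted fold depends on whether iEF replicate 2 is in the fit and is not given. *CACNG8*, in a cluster with *CACNG6* and *CACNG7* on chromosome 19, read 2.41 to 3.73 CPM in iLuc and 0.289 to 0.506 in iEF. *CACNG8* read 0.831 to 2.61 CPM in WT-EF, 0.381 to 1.18 in Δ22 and 0.633 to 2.01 in DAF. It was not called in Δ22 against iEF (edgeR's adjusted p = 0.475) or in DAF against Δ22. Its log2 difference from iEF was 2.83 ± 0.34 in iLuc, 1.80 ± 0.35 in WT-EF and 1.51 ± 0.36 in DAF (edgeR's adjusted p = 8.72e-06, 0.00107 and 0.0131), and the DAF call was lost without the replicate block (adjusted p = 0.0759), with ComBat-adjusted values (0.0734, limma) and without DAF replicate 3 (0.0843), iEF replicate 3 (0.0851) or replicate set 1 or 2 (0.0706 and 0.105). *CACNG6* averaged 5.9 counts and was not called.

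Among the sodium α genes, *SCN8A*, *SCN9A* and *SCN2A* supplied most reads. *SCN9A* (chr2:167051695-167232511), whose channel sets the threshold of pain-sensing neurons, read 11.6, 18.3 and 14.8 CPM in iLuc and 5.6, 5.19 and 5.58 CPM in iEF. It read 6.48, 8.32 and 9.93 CPM in WT-EF, 5.54, 8.89 and 8.36 in Δ22, and 9.74, 11.8 and 9.62 in DAF. WT-EF and DAF were above every iEF library and overlapped each other, and the iEF libraries were nearly equal. The log2 difference from iEF was 1.42 ± 0.17 in iLuc, 0.57 ± 0.17 in WT-EF and 0.91 ± 0.17 in DAF (edgeR's adjusted p = 6.99e-06, 0.0178 and 0.00273), and 0.44 ± 0.17 in Δ22 (adjusted p = 0.239). WT-EF was below iLuc by -0.85 ± 0.16 (edgeR's adjusted p = 0.00205), and WT-EF against DAF was -0.35 ± 0.16 (adjusted p = 0.14). Without replicate 2 of every condition the DAF call, the WT-EF call and that of WT-EF against iLuc were lost (edgeR's adjusted p = 0.0806, 0.124 and 0.0795), and the WT-EF call also without WT-EF replicate 3, iEF replicate 2, iEF replicate 3 or replicate set 3 (0.0804, 0.0846, 0.0732 and 0.0854).

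*SCN2A* (chr2:166051503-166248820), a channel of the axon initial segment in the brain, passed the test against iEF in the 3 rescues, while iLuc against iEF did not pass. It read 3.76, 3.17 and 4.57 CPM in iLuc and 4.34, 5.5 and 4.13 CPM in iEF. In WT-EF it read 2.05, 2.48 and 2.56 CPM, in Δ22 2.43, 1.51 and 1.43, and in DAF 1.86, 1.45 and 1.61. Every library of the rescues was below every iLuc and iEF library. Compared with iEF, the log2 difference was -0.97 ± 0.23 in WT-EF, -1.38 ± 0.23 in Δ22 and -1.51 ± 0.24 in DAF (edgeR's adjusted p = 0.0044, 0.0106 and 0.000932), and -0.28 ± 0.22 in iLuc (adjusted p = 0.343). The Δ22 call was lost without Δ22 replicate 2, Δ22 replicate 3, iEF replicate 2 or replicate 2 of every condition (edgeR's adjusted p = 0.106, 0.0694, 0.0528 and 0.353), and the WT-EF call without replicate 2 of every condition (0.0616). WT-EF against iLuc, at -0.69 ± 0.23, was called at an adjusted p of 0.0466 and lost in 12 of 16 alternatives (edgeR, up to 0.28), which include leaving out any 1 of its 6 libraries and the fit without the replicate block (0.0506).

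*SCN8A* (chr12:51984050-52206648), the channel of nodes of Ranvier, read 5.61 to 9.15 CPM in iLuc, 5.6 to 8.52 in iEF, 7.22 to 8.83 in WT-EF and 8.32 to 11.5 in Δ22. In DAF it read 10.2, 12.3 and 12.2 CPM, above every iLuc, iEF and WT-EF library. Against iEF, the log2 difference was 0.78 ± 0.19 in DAF (edgeR's adjusted p = 0.0166), and the call was lost without DAF replicate 3, iEF replicate 1, iEF replicate 2 or replicate set 1 or 2 (0.0905, 0.0717, 0.0652, 0.142 and 0.2). WT-EF against DAF, at -0.55 ± 0.19, was called at edgeR's adjusted p = 0.0425 but only in 5 of 16 alternatives, and it was lost when any 1 of the 6 libraries compared was left out, at an adjusted p of up to 0.15.

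*SCN1A*, *SCN2A*, *SCN3A*, *SCN7A* and *SCN9A* lie in a stretch of chromosome 2 (chr2:165944036-167467992) and differed in the comparisons that called them. *SCN1A*, a channel of inhibitory neurons, read 0.978, 2.1 and 1.07 CPM in iLuc, 0.166, 0.423 and 0.612 in WT-EF, and had 1 count over the 3 iEF libraries. The ratio over iEF was 143.0 in iLuc (95% counting interval 25.3 to 5700.0) and 41.2 in WT-EF (7.03 to 1663.0), with edgeR's adjusted p of 1.2e-06 and 0.000197. WT-EF was above DAF as well (edgeR's adjusted p = 0.00516, and 0.0851 without replicate 3 of every condition). *SCN3A* and *SCN7A*, at 0.281 to 1.92 and 0.0335 to 0.443 CPM over all libraries, were called in no comparison. *SCN1A* and *SCN9A* both overlap an antisense RNA that averaged 1.9 counts. On chromosome 3, *SCN10A* and *SCN11A* are neighbours, and neither was called. *SCN11A* averaged 2.3 counts and shares 61 bp of exon with *WDR48* on the other strand, which averaged 1367.4 counts. *SCN4A*, the channel of skeletal muscle, had 50 counts over the iLuc libraries and 4 over the iEF libraries, a ratio of 12.5 (4.6 to 47.8; edgeR's adjusted p = 0.00451), and 3 over the WT-EF libraries.

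The sodium β genes encode single-pass proteins that modulate the pore and act in cell adhesion, and *SCN4B* was far higher in iLuc than in iEF. *SCN4B* (chr11:118004092-118023603), the subunit linked to resurgent sodium current, read 5.78, 10.4 and 4.63 CPM in iLuc and 0.0526, 0.304 and 0.0873 CPM in iEF. It read 0.194, 0.898 and 1.78 CPM in WT-EF, 0.117, 0.261 and 0.179 in Δ22, and 0.246, 0.343 and 0.0671 in DAF. iLuc stood above all other libraries, and WT-EF replicate 1 lay below iEF replicate 2. Relative to iEF, the log2 difference was 5.64 ± 0.61 in iLuc (49.8-fold) and 2.73 ± 0.67 in WT-EF (edgeR's adjusted p = 3.07e-06 and 0.00604), and 0.65 ± 0.82 in DAF (adjusted p = 0.716). WT-EF was below iLuc by -2.91 ± 0.49 (edgeR's adjusted p = 0.000805; 0.0532 without replicate 2 of every condition), and by -3.98 without WT-EF replicate 3. Without iEF replicate 2 the iLuc difference from iEF was 6.32. Without WT-EF replicate 3 the WT-EF difference from iEF was 1.65, without iEF replicate 2 it was 3.45, and with ComBat-adjusted values it was 0.69 and not called (adjusted p = 0.0656, limma with a pseudocount of 1 CPM). WT-EF against DAF, at 2.08 ± 0.63 (edgeR's adjusted p = 0.0226), was 1.01 and not called without WT-EF replicate 3 (0.122), and was lost in 7 of 16 alternatives.

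*SCN3B* (chr11:123499895-123525952) averaged 28.0 counts per library and was highest in DAF. It read 1.48, 2.4 and 2.85 CPM in DAF, 0.394, 0.236 and 0.291 in iEF, 0.611, 0.561 and 0.537 in iLuc, 0.665, 0.317 and 0.373 in WT-EF, and 0.557, 0.73 and 0.536 in Δ22. The DAF libraries were above all 12 others. The log2 difference was 2.85 ± 0.35 for DAF against iEF, 1.87 ± 0.32 for DAF against Δ22 and -2.32 ± 0.33 for WT-EF against DAF (edgeR's adjusted p = 0.000172, 0.00902 and 0.000127). WT-EF and Δ22 did not differ from iEF past the test (edgeR's adjusted p = 0.364 and 0.265). The call against Δ22 was lost in 5 of 16 alternatives, those without DAF replicate 2, DAF replicate 3, Δ22 replicate 1, Δ22 replicate 3 and replicate 2 of every condition, at an adjusted p of up to 0.154.

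The rescues were also compared with iLuc and with each other. WT-EF had 4 channel genes above and 9 below iLuc, with 10.7% and 9.03% of all tested genes called and a median of -0.34 against -0.01. The 9 included *CACNA1H*, *CACNA1I*, *SCN1A*, *SCN4A*, *SCN4B* and *SCN9A*, each of which was higher in iLuc than in iEF, and the 4 included *CACNA1C*, *CACNA2D3* and *CACNG4*, each lower in iLuc than in iEF. As the iLuc libraries enter both comparisons, this is not a separate result. WT-EF had 7 channel genes above DAF (*CACNA1G*, *CACNA1H*, *CACNB2*, *CACNG3*, *CACNG4*, *SCN1A* and *SCN4B*) and 6 below it (*CACNA1A*, *CACNA2D3*, *CACNB3*, *SCN3B* and *SCN8A* among them), with 12.4% and 16.1% over all tested genes. DAF had 2 above Δ22, *CACNA1I* and *SCN3B*, and none below, with 0.948% and 0.379% over all tested genes. Without single libraries or replicate sets these counts ran from 5 to 15 for WT-EF against iLuc, from 8 to 12 for WT-EF against DAF and from 0 to 3 for DAF against Δ22, with 5, 8 and 0 without replicate 2 of every condition, 6 for WT-EF against iLuc without replicate 1 of every condition, and 0 for DAF against Δ22 also without DAF replicate 2, Δ22 replicate 1 or Δ22 replicate 3. Of these calls 4 of 13, 5 of 13 and 0 of 2 were made under every alternative that tested the gene.

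Promoters were read from RefSeq on GRCh38.p14 as the 250 bases before each start, with the first listed entry taken per gene, and 26 of the 40 channel genes had an entry. The 14 without one included *CACNA1G*, *CACNA1H*, *CACNA2D4*, *CACNG1*, *CACNG2*, *CACNG4*, *CACNG5*, *CACNG7*, *CACNG8*, *SCN3A*, *SCN3B* and *SCN4A*. The motif GGAAGGAA, searched on both strands, was in 1 of the 26 (3.85%, *CACNA1A*) and in 2.99% of the promoters of all 27305 genes, and it was also in another entry of *CACNB4*, which lists 5. The ETS core CCGGAA, also on both strands, was in 2 (7.69%, *CACNA1A* and *SCN11A*) and in 14.8% of all genes. A match does not show a bound site.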

How the data were processed

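RNA-seq libraries of A673 cells from 5 conditions with 3 libraries each were used, grouped by the deposited labels. The authors aligned 150 bp paired-end reads to hg19 with STAR (2.5.1b in the submitters' processing notes) and ran htseq-count (intersection-strict) for the gene counts. The libraries were made with a ScriptSeq kit, and the strand setting of the counting is not given in the sources used here. The deposited counts are whole numbers without normalization and were tested as they stand. A second table that the authors deposited holds a signal of counts after their ComBat adjustment by replicate set, for 27002 genes, and served as an alternative. It lists 30 of the 40 channel genes. The authors' own comparisons (fold changes, standard errors, p-values) were not used, nor were 3 columns of the count table that belong to other samples.

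The channel genes, the associated genes and the comparisons were chosen with earlier results of these data known. Gene identifiers were matched to symbols and lengths in GENCODE's annotation on GRCh37. The model used edgeR 4.0.16 under R 4.3.3. A mean of 1 count over the 15 libraries was required (28793 genes), libraries were TMM-normalized (factors 0.894 to 1.11), and 1 quasi-likelihood model with condition and replicate number as a block was fitted to all 15 libraries, with Benjamini-Hochberg adjustment per comparison and a cutoff of 0.05. The block follows the study, which adjusted each replicate set as a batch. Deviations of same-numbered libraries from their condition means had a median r of 0.181 (30 pairs, -0.147 to 0.709, over 15467 genes) and those of different numbers -0.078 (60 pairs). No pair of replicates agreed within counting noise (chi-square per gene 12.9 to 83.2 over 15 pairs). The scripts were tested on simulated data. Some items of the set enter the counts but are not reported by name here.

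Values in every library are given for members averaging at least 50 counts that passed the test in at least 1 of the 7 comparisons. Other members are given by name with ranges, except *CACNA1I*, *SCN3B*, *CACNA2D3*, *SCN1A* and *CACNG3*, which were described in more detail after their values were seen, as was the search for GGAA runs. Associated genes are named where they averaged at least 50 counts and had an adjusted p under 0.05 and an absolute log2 fold change over 1 in iLuc or DAF against iEF. Alternatives were DESeq2 size factors, DESeq2 1.42.0, 2 other filters, no block, only the 6 libraries compared, limma 3.58.1 on ComBat-adjusted values, a cutoff of 0.01, and leaving out each library and each replicate set. The alternatives for *FLI1* and the associated genes were added after the data were seen. Ratios for genes with at most 3 counts in every iEF library carry exact intervals, which like the floor of 3 counts cover counting error only.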

Additional observations from a re-analysis of the deposited data

How the results depend on the processing

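The 73 calls of channel genes were repeated under at most 16 alternatives each, and 38 were made in every one that tested the gene. The fit with no replicate block called 17 channel genes for iLuc against iEF, 14 for WT-EF, 2 for Δ22 and 8 for DAF against iEF, and 12 for WT-EF against iLuc, 11 for WT-EF against DAF and 2 for DAF against Δ22. At an adjusted p under 0.01 the counts were 0 for Δ22 against iEF (main count 2), 7 for DAF against iEF (main count 11) and 1 for DAF against Δ22 (main count 2). For DAF against Δ22, DESeq2's Wald test called 5, the fit with no filter on low counts 5, and the fit of the 6 libraries compared alone 10. The shares of all tested genes under these alternatives are not given. Whether such a rise is particular to the channel genes was therefore not tested. Leaving out single libraries or replicate sets gave 16 to 19 calls for iLuc against iEF, 12 to 15 for WT-EF against iEF, 0 to 3 for Δ22 against iEF, 6 to 12 for DAF against iEF, 5 to 15 for WT-EF against iLuc, 8 to 12 for WT-EF against DAF and 0 to 3 for DAF against Δ22. Where a single library or replicate set was left out the design has fewer samples, and for the other settings the cause was not tested. In 4827 repeats over the channel genes called in any comparison, *FLI1* and 15 associated genes, no called difference changed sign, 268 calls were lost and 106 gained. Genes with under 10 counts per library rest on few reads, and counting intervals leave out the spread between libraries.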

Other observations

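The same fit was read for 34 genes whose products bind, place or work beside these channels. By edgeR's quasi-likelihood test 18 were higher and 10 lower in iLuc than in iEF (52.9% and 29.4%; all tested genes, 19.5% and 22.1%). In WT-EF 13 were higher and 6 lower (38.2% and 17.6%, beside 12.9% and 17.0% of all tested genes). In Δ22 1 was higher and 1 lower (2.94% each, beside 0.472% and 0.83%). In DAF 9 were higher and 2 lower (26.5% and 5.88%, beside 5.0% and 6.19%), so the share lower in DAF was near that of all tested genes. *FGF12*, a cytoplasmic partner of sodium channel α subunits, read 7.79, 15.7 and 7.97 CPM in iLuc, 0.447, 0.877 and 0.669 in iEF, 1.36, 2.64 and 3.59 in WT-EF and 0.843, 4.06 and 4.36 in DAF. Its log2 difference from iEF was 4.0 ± 0.38 in iLuc, 1.91 ± 0.39 in WT-EF and 2.11 ± 0.39 in DAF (edgeR's adjusted p = 9.6e-07, 0.00157 and 0.00279), the last lost without replicate 2 of every condition (0.0865). *FGF13*, of the same family, was 1.36 ± 0.16 higher in iLuc and 0.06 ± 0.16 in DAF (edgeR's adjusted p = 5.76e-06 and 0.884). *ANK3*, the ankyrin that anchors sodium channels at the axon initial segment, was lower in iLuc by -1.32 ± 0.19 (edgeR's adjusted p = 6.27e-05). WT-EF against iEF, at -0.19, was not called for *ANK3* (edgeR's adjusted p = 0.522). In DAF it was called higher than in iEF, at 0.66 (edgeR's adjusted p = 0.0364), a call made in 7 of 16 alternatives. *NALCN*, a sodium leak channel, was lower in iLuc by -3.09 ± 0.25, at 0.954 to 1.4 against 8.81 to 10.2 CPM, while *UNC80*, a subunit of that channel, was higher by 2.17 ± 0.31 (edgeR's adjusted p = 1.86e-07 and 4.51e-05).

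The small GTPases *RRAD* and *GEM*, which inhibit high-voltage-activated calcium channels through their β subunits, were both lower in iLuc. *GEM* read 9.14, 6.99 and 5.73 CPM in iLuc, 157, 122 and 142 in iEF, 71.8, 54.9 and 25.6 in WT-EF and 138, 108 and 62.8 in DAF. Its log2 difference from iEF was -4.32 ± 0.23 in iLuc and -1.58 ± 0.20 in WT-EF (edgeR's adjusted p = 3.28e-09 and 2.7e-05), and -0.54 ± 0.19 in DAF (adjusted p = 0.0955). *RRAD* had -3.96 ± 0.46 in iLuc and -2.33 ± 0.39 in WT-EF (edgeR's adjusted p = 5.71e-06 and 0.000317), and the latter was -3.03 without WT-EF replicate 1. Of genes for intracellular calcium release, *RYR2*, a release channel, was higher in iLuc by 2.94 ± 0.32, *TRDN*, which binds it, by 2.51 ± 0.29, and *JPH1*, which ties the endoplasmic reticulum to the surface membrane, by 3.59 ± 0.22 (edgeR's adjusted p = 3.5e-06, 6.11e-06 and 1.15e-08). *TRDN* read more in WT-EF, at 106 to 152 CPM, than in iLuc, at 52.3 to 63.3. It was also called higher than iEF in DAF and Δ22 (edgeR's adjusted p = 0.000122 and 0.0302), the latter in 8 of 16 alternatives. The other release channels, added after their values were seen, were *RYR3*, lower in iLuc by -0.97 ± 0.28, and *RYR1*, at 0.83 ± 0.42 (edgeR's adjusted p = 0.0124 and 0.13). *JPH2*, of the same family as *JPH1*, was lower by -3.91 ± 0.57 (edgeR's adjusted p = 5.51e-05; -4.58 without replicate 1 of every condition). *CACHD1* and *TMEM37*, relatives of the α2δ and γ subunits, were higher in iLuc by 1.08 ± 0.20 and 1.75 ± 0.27 (edgeR's adjusted p = 0.000387 and 0.000108). *CACHD1* was also called higher than iEF in WT-EF, by 1.76, and in DAF, by 1.05 (edgeR's adjusted p = 1.01e-05 and 0.00308). *TPCN1* and *TPCN2*, pores of endosomes and lysosomes, were lower in iLuc by -1.15 ± 0.12 and -1.16 ± 0.15 (edgeR's adjusted p = 2.04e-06 and 1.29e-05).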
